A study of Bos taurus with 16 samples.

Results

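Collagen chains are the polypeptides that assemble 3 at a time into collagen molecules. Their genes were taken here as the rows of the 16-sample table of bovine luteal cells whose symbol has the form COL, a type number, A and a chain number. Of 18705 genes in the table, 42 were such rows, and 30 of them passed a level rule: a normalized count of 10 or more in 4 or more of the 16 samples. A normalized count is the number of reads assigned to a gene divided by 1 scaling factor per sample. It is not corrected for gene length, so levels of different genes are not compared. The same level rule left 14122 genes, and all tests were run over those. The 12 rows below the rule were COL2A1, COL6A6, COL9A3, COL10A1, COL11A2, COL19A1, COL20A1, COL22A1, COL23A1, COL25A1, COL26A1 and COL28A1.

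The cells were primary mixed luteal steroidogenic cells of Bos taurus, from corpora lutea taken on days 10 to 12 of the cycle. All 4 groups were cultured with luteinizing hormone (LH) at 10 ng/mL and collected 24 hours after treatment, and each group had 4 samples, numbered 1 to 4. The IFNT+PGF2A group received interferon tau (IFNT) at 1 ng/mL together with prostaglandin F2 alpha (PGF2A) at 10 ng/mL, the IFNT group and the PGF2A group received 1 of these at the same dose, and the control group neither. IFNT is the secreted signal of the ruminant conceptus, and PGF2A is the hormone that brings about regression of the corpus luteum. Triplicate wells were pooled into each sample. What a number marks, an animal or a culture, is not in the labels; p-values therefore cover only the variation among the samples at hand, part of which may be technical.

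Collagens fall into classes by the structure they build. Fibrillar chains form the banded fibrils of connective tissue, and FACIT chains (fibril-associated collagens with interrupted triple helices) sit on the surface of those fibrils. Network-forming type IV chains make the sheet of basement membranes, multiplexins lie where basement membrane meets stroma and release anti-angiogenic fragments, and type VI chains form beaded filaments around cells. In the corpus luteum these proteins surround the steroidogenic cells and the dense capillary bed, and the matrix is rebuilt as the gland grows and regresses.

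Of the rows in each class, 9 of 11 fibrillar, 5 of 9 FACIT, 5 of 5 basement membrane, 4 of 5 beaded filament, 2 of 2 multiplexin, 2 of 3 short-chain, 1 of 1 anchoring fibril and 2 of 4 transmembrane chains passed the level rule. Just inside the rule, COL9A2 reached the minimum in 7 samples with a mean of 12.15, and COL17A1 in 6 samples with a mean of 11.06. Just outside it, COL26A1 reached it in 2 samples with a mean of 6.63, and COL11A2, COL9A3 and COL22A1 in 1 sample each.

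Each sample had 23786067 to 25906276 reads on genes. Samples with the same number deviated from their group means together. They were therefore compared as pairs and in an alternative fit with the number as a block. The main fit left the number out. The pairing comes from the data, not from the labels. Number 4 had the highest sum over 12 pericyte and smooth muscle markers in every group, at 225082 to 323070 normalized counts, against 105991 to 139640 in numbers 1 to 3. ACTA2 and TAGLN, contractile genes, made up 70.5% to 81.2% of that sum, and 7 of the 12 genes were highest in number 4 in all 4 groups; RGS5 and ABCC9 were not among them. The 8 steroidogenic markers, among them STAR, CYP11A1 and HSD3B1, summed to 76108 to 147353 over the 16 samples, and no gene of any marker list was at 0 in all samples. In a bulk sample, fewer cells of a type and less RNA per cell cannot be told apart.

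Together the 42 collagen rows took 3.07% to 6.68% of the reads assigned to genes. The share was 4.29%, 3.07%, 4.80% and 5.51% in IFNT+PGF2A samples 1 to 4 and 4.39%, 3.47%, 5.001% and 5.94% in IFNT samples. It was 5.02%, 4.09%, 5.64% and 6.42% in PGF2A samples and 5.04%, 4.67%, 5.95% and 6.68% in control samples. Within each number the share was lower with IFNT than without it, but the groups overlapped, and no test was made of the share. Fibrillar chains held 61.9% to 75.3% of the collagen reads in a sample, and the basement membrane chains 10.4% to 18.6%.

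**Figure D1:**
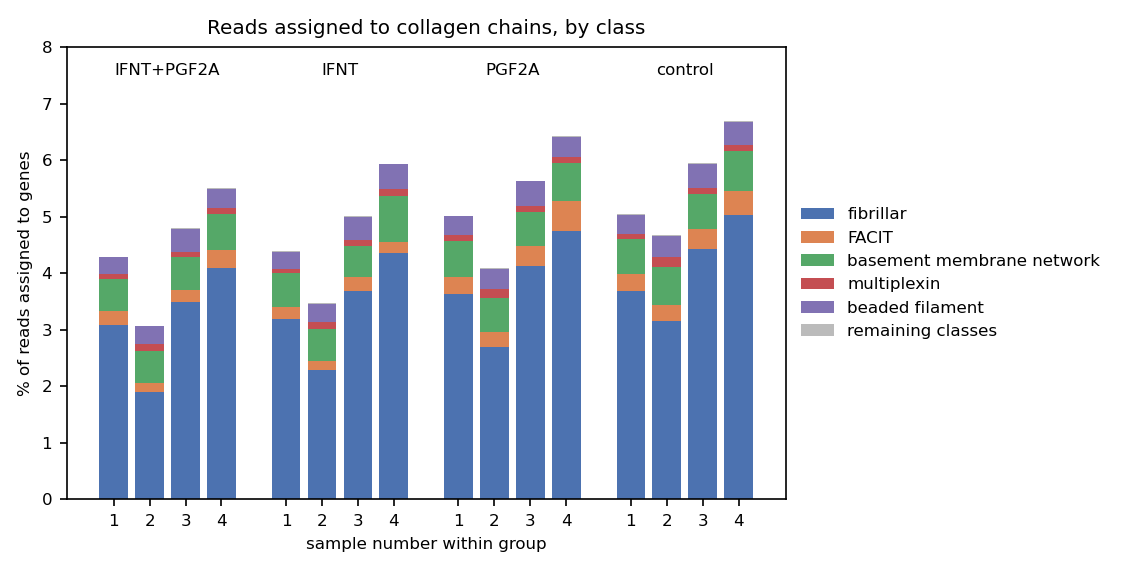
Share of all reads assigned to genes (vertical axis, %) that fell on collagen rows in each of the 16 samples, stacked by class, with samples 1 to 4 of each group side by side. Number 2 has the shortest bar and number 4 the tallest in every group, and the fibrillar class makes up most of each bar.

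The first comparison asked what IFNT alone did. In the main fit, which leaves the number out, COL11A1 and COL12A1 fell and no chain rose. The threshold was 0.05 after Benjamini-Hochberg adjustment over all 14122 genes (called, from here on). Limma called 2 of 30 chains lower, beside 10.9% of all genes, and 0 higher, beside 13.1% of all genes. At an unadjusted p under 0.05 it counted 4 chains lower and 2 higher, against 17.4% and 17.5% of all genes, and edgeR and DESeq2 called 0 higher as well. When the sample number was added to the model as a block, 11 chains were called lower (22.1% of all genes) and 5 higher (21.3% of all genes). That is 53.3% of the chains in either direction, with 43.5% of all genes, so the number of called chains was not far from the background. Without number 2 or number 3 the block called 9 chains in either direction, and without number 4 it called 18. These leave-out counts have no share of all genes beside them. The median difference over the 30 chains was -0.04 on the log2 scale, and that over all genes tested was -0.04. By class the median was -0.16 over the 9 fibrillar, 0.10 over the 5 FACIT, -0.26 over the 5 basement membrane and 0.11 over the 4 beaded filament chains.

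With both agents against control, COL3A1, COL4A5 and COL4A6 fell in the main fit. These 3 lower calls of 30 stood beside 9.72% of all genes, and the 0 higher calls beside 12.4%; 1 chain was higher at an unadjusted p under 0.05 (17.3% of all genes), edgeR called 0 higher and DESeq2 1. With the block, 11 chains were called lower (20.3% of all genes) and 5 higher (21.1%). The median over the chains was -0.11, and over all genes -0.01. This comparison has its control samples in common with the first and its IFNT+PGF2A samples in common with the next.

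In the main fit, COL6A5 rose with IFNT added to PGF2A. It was the 1 higher call of 30, beside 12.3% of all genes, and 0 chains were called lower, beside 8.54%; 6 were lower at an unadjusted p under 0.05 (15.1% of all genes), edgeR called 0 lower and DESeq2 1. With the block, 9 chains were called lower (19.5% of all genes) and 6 higher (20.9%), 15 in all, against 9 without number 2 or number 3. The leave-out count has no share of all genes beside it. The median over the chains was -0.05, and over all genes -0.01.

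IFNT against control and IFNT+PGF2A against PGF2A have no sample in common. The sign of the difference was the same in both for 29 of 30 chains, or 96.7%, with 87.6% of all genes; COL5A2, close to 0 in both, was the exception. Of the chains called with the block, 9 were lower in both, which is 81.8% of those lower with IFNT alone and 100% of those lower with IFNT added to PGF2A. For all genes these shares were 74.4% and 84.6%. Those higher in both numbered 5, or 100% and 83.3%, with 84.9% and 86.8% for all genes.

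**Figure D2:**
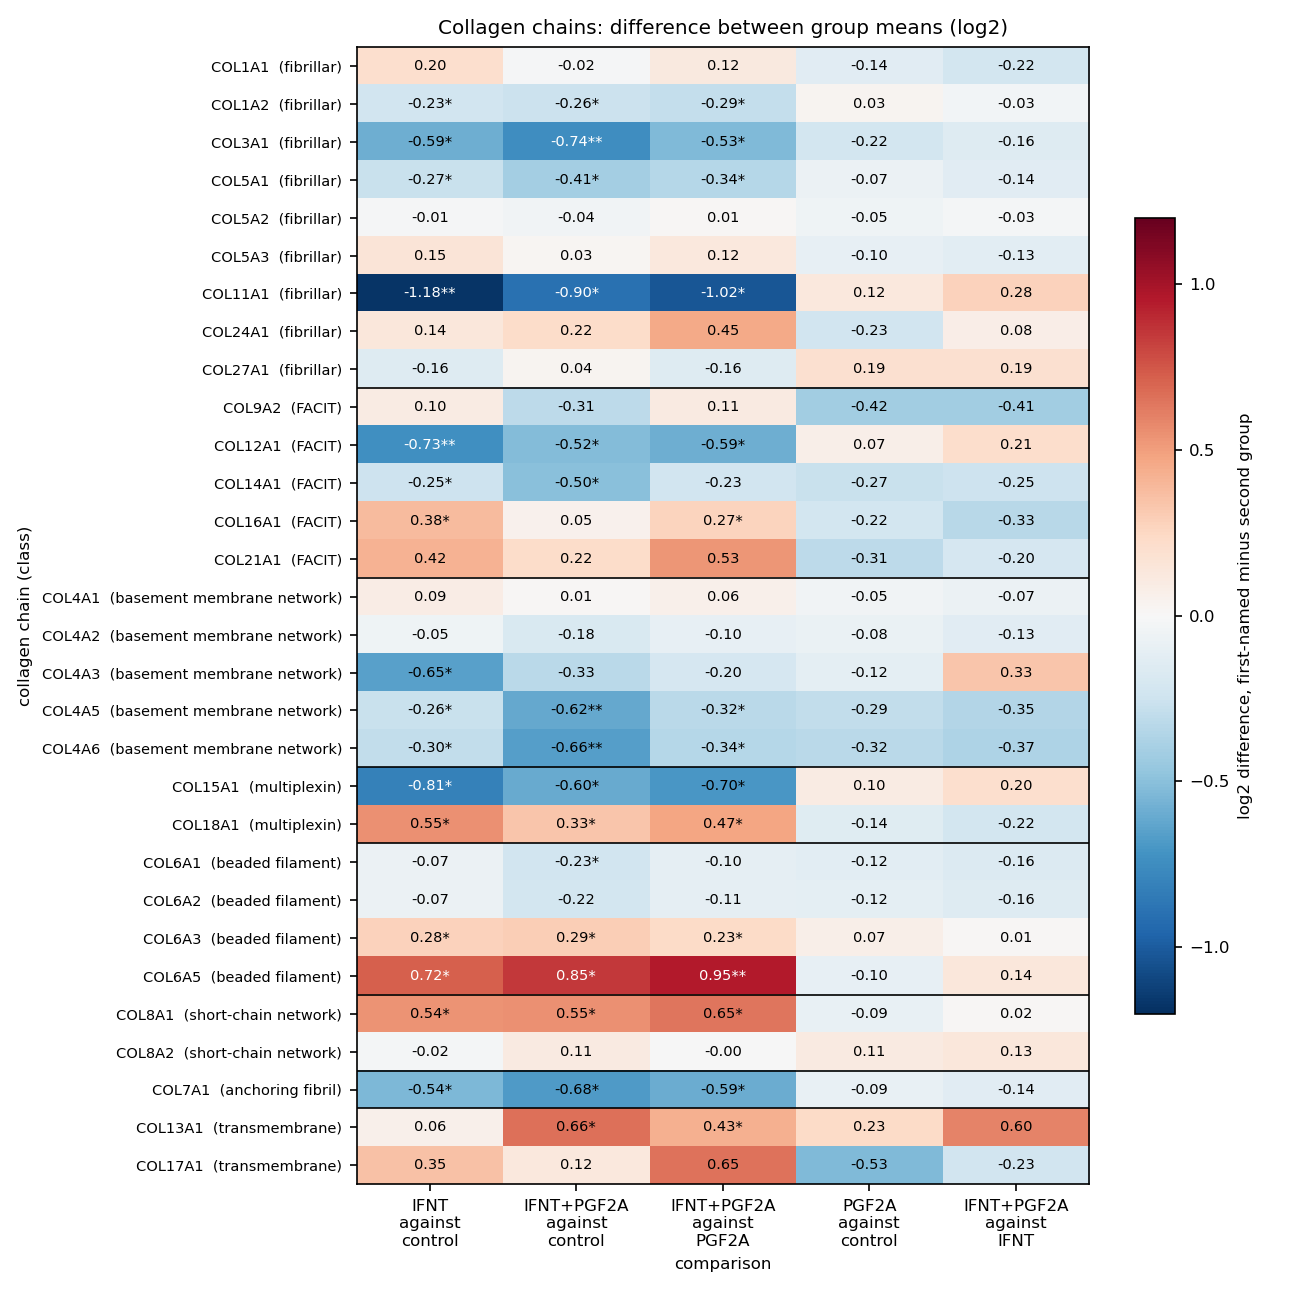
Difference between group means on the log2 scale for each of the 30 chains (rows, by class) in each of 5 comparisons (columns), first-named group minus second. Blue is lower and red higher in the first-named group; 2 asterisks mark a call without the block and 1 asterisk a call with the block only. The asterisks all lie in the 3 columns that set a group with IFNT against one without it, and COL11A1 in the column of IFNT against control, at -1.18, is the darkest cell.

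Among the fibrillar chains, COL3A1 makes the homotrimer of type III collagen, the fibril collagen of reticular and vascular tissue. COL3A1 (gene ID 510833) had normalized counts of 180398, 135653, 242606 and 243783 in IFNT+PGF2A samples 1 to 4 and 194981, 178514, 265151 and 241761 in IFNT samples. It had 250465, 217475, 353495 and 323565 in PGF2A samples and 279034, 289221, 390513 and 361122 in control samples. Every IFNT+PGF2A and every IFNT sample was below every control sample, while both overlapped the PGF2A samples. The difference of IFNT+PGF2A from control was -0.74 on the log2 scale (SE 0.22, limma adjusted p = 0.023), lower in 4 of 4 pairs. For IFNT alone against control it was -0.59 (SE 0.22), with an adjusted p of 0.065 without the block and 4.2e-05 with it, and for IFNT+PGF2A against PGF2A it was -0.53, with 0.11 and 0.00012. The first call was lost with no filter on low values (adjusted p = 0.0519) and without control 3 or 4 or IFNT+PGF2A 1 or 2 (0.0559 to 0.0776), and without number 1, 2 or 3 in all groups (0.0719 to 0.0873).

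COL11A1, a minor fibrillar chain that enters fibrils with type II or V chains and helps set their width, showed the widest difference of any chain in all 3 comparisons of a group with IFNT against one without it. COL11A1 had 706, 341, 713 and 914 normalized counts in IFNT+PGF2A samples 1 to 4 and 638, 283, 655 and 606 in IFNT samples. It had 1241, 645, 1532 and 2190 in PGF2A samples and 1113, 696, 1501 and 1635 in control samples. Number 2 was the lowest in all 4 groups, and the IFNT samples did not reach the control samples. IFNT samples averaged 546 ± 176 and control samples 1236 ± 423 (SD, n = 4 each), a log2 difference of -1.18 (SE 0.40, limma adjusted p = 0.042). With the block the SE was 0.12 and the adjusted p 3.3e-06, and IFNT+PGF2A against PGF2A gave -1.02, with adjusted p of 0.083 and 1.4e-05. Without the block the call was lost with no filter (0.0509) and without any 1 of 9 libraries (0.0513 to 0.134: control 1, 3 and 4, IFNT 2 and 3, PGF2A 1 and 3, IFNT+PGF2A 1 and 3), and without number 1, 3 or 4 (0.0867 to 0.174). With the block the adjusted p was at most 0.000382 with any 1 number left out.

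COL1A1 and COL1A2 are the 2 chains of type I collagen, the main fibril collagen, and their differences from control with IFNT were of opposite sign. COL1A1 had 250878, 148317, 323793 and 364397 in IFNT+PGF2A samples 1 to 4 and 261974, 184479, 329172 and 504114 in IFNT samples. It had 215428, 162384, 273296 and 329015 in PGF2A samples and 216526, 182605, 291431 and 399171 in control samples. IFNT 4 was the highest sample, the groups overlapped, and COL1A1 was called in no comparison. Its difference for IFNT against control was 0.20 (95% interval -0.54 to 0.94, or 0.01 to 0.39 with the block). COL1A2 differed by -0.23 in the same comparison (interval -0.93 to 0.48), with an adjusted p of 0.68 without the block and 0.022 with it.

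COL5A1, a chain of type V collagen that starts fibril formation, averaged 14480 ± 2724 in IFNT+PGF2A samples, 15965 ± 3470 in IFNT samples, 18172 ± 2387 in PGF2A samples and 19172 ± 3425 in control samples (SD, n = 4 each). In IFNT+PGF2A samples 1 to 4 it had 12959, 11545, 15869 and 17548, in IFNT samples 13721, 13659, 15464 and 21016, in PGF2A samples 15276, 17832, 18498 and 21084, and in control samples 15077, 18876, 19285 and 23452. The groups overlapped. For IFNT+PGF2A against control it was lower in 4 of 4 pairs, by -0.41 on the log2 scale, with an adjusted p of 0.11 without the block and 0.0012 with it. Its partner chains COL5A2 and COL5A3 were called in no comparison, with differences of -0.01 and 0.15 for IFNT against control; over the 16 samples COL5A2 had 40961 to 70981 normalized counts and COL5A3 2342 to 4318. COL24A1 and COL27A1, fibrillar chains known from bone and cartilage, were also called in none, and their differences ran from -0.23 to 0.45 over the 5 comparisons, both ends in COL24A1.

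Among the FACIT chains, COL12A1 links fibrils to the surrounding matrix in tissues under tension. COL12A1 (gene ID 359712) had 53586, 35812, 46795 and 74932 normalized counts in IFNT+PGF2A samples 1 to 4 and 49682, 36175, 51733 and 40043 in IFNT samples. It had 64259, 58464, 77301 and 117430 in PGF2A samples and 63846, 64130, 74955 and 92379 in control samples. Every IFNT sample was below every control sample, and number 4 was the highest in each group except the IFNT group. IFNT samples averaged 44408 ± 7490 and control samples 73828 ± 13405, a log2 difference of -0.73 (SE 0.24, limma adjusted p = 0.035, or 0.0021 with the block). Without the block the call was lost without control 3 or 4 or IFNT 2 or 4 (0.0607 to 0.0986) and without number 1, 2 or 3 in all groups (0.0774 to 0.134). COL3A1, COL11A1 and COL12A1 were the 3 of 30 chains whose IFNT samples all lay below the control samples, and 9.87% of all genes did so; no chain had IFNT samples all above, as 12.1% of all genes had.

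COL14A1, another fibril-bound chain, averaged 3887 ± 1681 in IFNT+PGF2A samples and 5343 ± 1926 in control samples, with 2824, 2202, 4658 and 5865 in IFNT+PGF2A samples 1 to 4 and 3603, 4097, 5813 and 7859 in control samples. IFNT samples had 3283, 3308, 5367 and 5856, and PGF2A samples 3171, 2818, 5169 and 6890. COL14A1 was lower with both agents than in control in 4 of 4 pairs, by -0.50 on the log2 scale, while the groups overlapped widely, and the adjusted p was 0.36 without the block and 0.00076 with it. COL16A1, a chain that joins fibrils to cells, had 1614, 1556, 2706 and 2231 in IFNT+PGF2A samples, 1832, 1995, 2996 and 3489 in IFNT samples, 1394, 1285, 2099 and 1910 in PGF2A samples, and 1351, 1650, 2507 and 2358 in control samples. With IFNT against control it was higher in 4 of 4 pairs, by 0.38, with an adjusted p of 0.32 without the block and 0.0025 with it. In IFNT+PGF2A samples COL16A1 was close to control, at 2027 ± 546 against 1966 ± 555, a difference of 0.05. COL21A1, with 37.7 to 143 normalized counts, and COL9A2, close to the level rule, were called in no comparison.

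**Figure D3:**
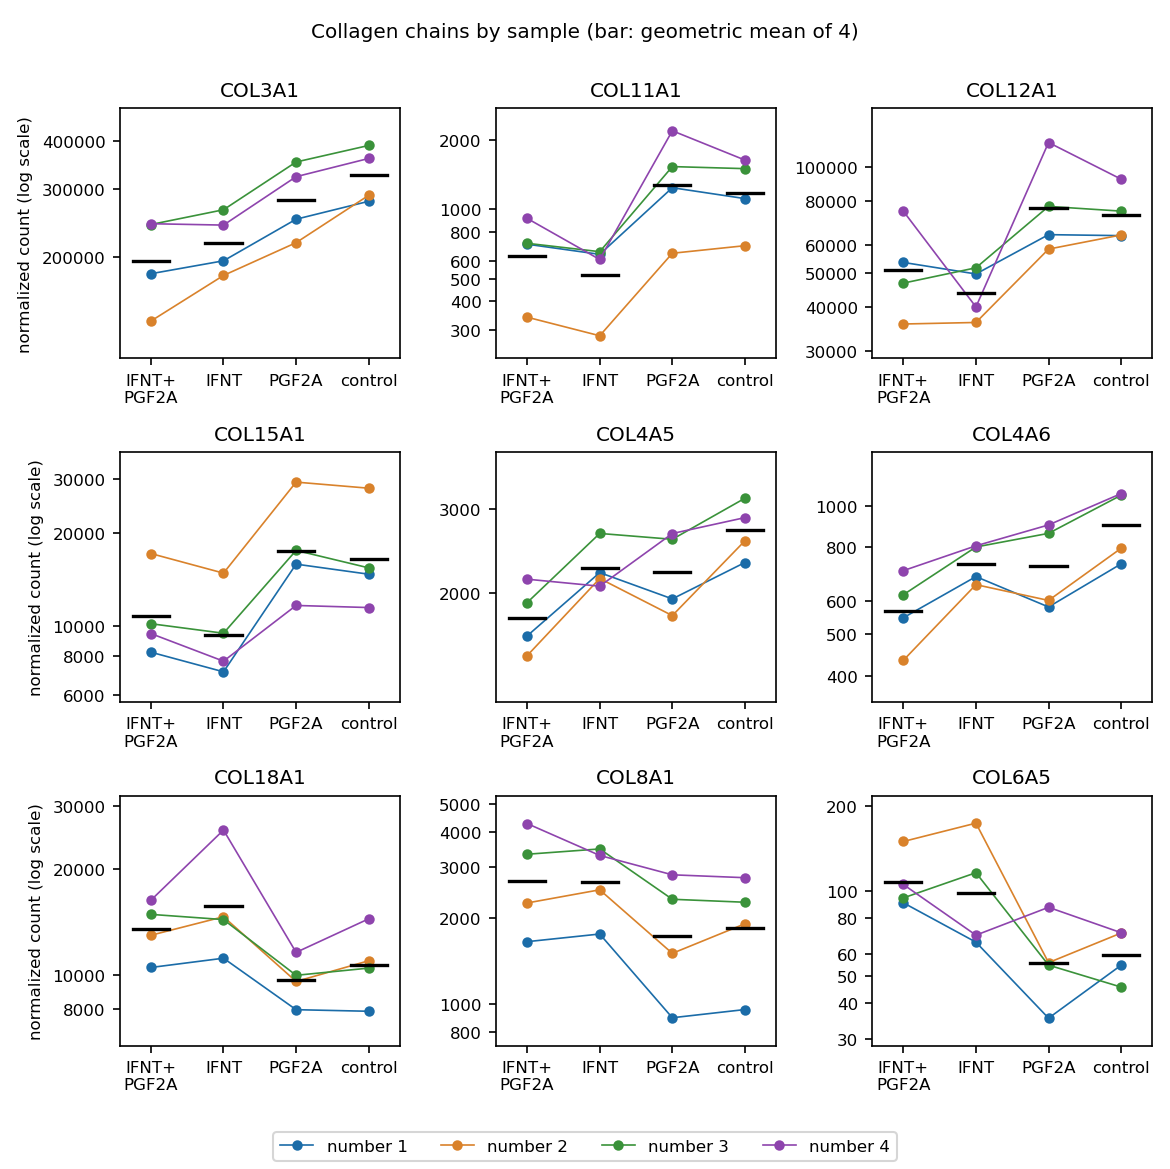
Normalized counts (log scale) of 9 collagen chains in each sample, with the 4 groups along the horizontal axis, coloured lines joining samples of the same number and a black bar at the geometric mean of each group. In COL11A1 and COL15A1 each line lies lower in both groups with IFNT than in both groups without it, by unequal steps. The difference between groups with and without IFNT is clearer within a number than between group means.

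Among the type IV chains, COL4A1 and COL4A2, which together make the type IV collagen of nearly all basement membranes, were called in no comparison, and COL4A1 had the narrowest 95% interval of the 30 chains in each without the block. COL4A1 had 96516, 97519, 99597 and 107907 in IFNT+PGF2A samples 1 to 4, 98410, 97475, 96391 and 133987 in IFNT samples, 96387, 93829, 90860 and 104335 in PGF2A samples, and 93702, 101327, 91935 and 111522 in control samples. Apart from IFNT 4, the samples lay close together. The difference of IFNT from control was 0.09 (95% interval -0.17 to 0.34), and that of IFNT+PGF2A from control was 0.01 (-0.24 to 0.27).

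COL4A5 and COL4A6, which pair in the basement membranes of smooth muscle and some epithelia, are neighbours in the genome, and both fell with the 2 agents together. COL4A5 had 1625, 1477, 1909 and 2138 in IFNT+PGF2A samples 1 to 4 and 2208, 2145, 2668 and 2067 in IFNT samples. It had 1944, 1793, 2593 and 2667 in PGF2A samples and 2318, 2575, 3163 and 2880 in control samples. All IFNT+PGF2A samples lay below all control samples, with the groups that received 1 agent between them on average. The log2 difference of IFNT+PGF2A from control was -0.62 (SE 0.15, limma adjusted p = 0.0081). It was -0.26 for IFNT alone against control (adjusted p = 0.23, or 0.038 with the block) and -0.29 for PGF2A alone against control (1.0, or 0.48 with the block). The call for both agents was lost without number 2 (0.0525) or number 3 (0.0516) in all groups, and held when any 1 library was left out.

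COL4A6 had 547, 435, 619 and 705 normalized counts in IFNT+PGF2A samples 1 to 4, 682, 654, 800 and 805 in IFNT samples, 580, 600, 861 and 901 in PGF2A samples, and 731, 795, 1057 and 1066 in control samples. Again no IFNT+PGF2A sample reached the control samples, with a log2 difference of -0.66 (SE 0.18, adjusted p = 0.016). IFNT alone differed from control by -0.30 (adjusted p = 0.27, or 0.012 with the block) and PGF2A alone by -0.32 (1.0, or 0.28 with the block). The call was lost without control 3 or 4 or IFNT+PGF2A 2 (0.0539 to 0.0574) and without number 2 or 3 in all groups (0.0751 and 0.102). COL3A1, COL4A5 and COL4A6 were the 3 of 30 chains whose IFNT+PGF2A samples all lay below the control samples, and 13.2% of all genes did so. COL4A3, a chain of the network found in kidney and lung, had counts of 30.3 to 157 with number 3 the highest in each group, and was called for IFNT against control with the block only (-0.65, adjusted p = 0.026).

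The 2 multiplexins differed in opposite directions, in every number, between groups with and without IFNT. COL15A1, found in the basement membrane zone of vessels and muscle, had 8251, 17183, 10196 and 9477 in IFNT+PGF2A samples 1 to 4 and 7131, 14855, 9500 and 7718 in IFNT samples. It had 15882, 29230, 17589 and 11680 in PGF2A samples and 14737, 27934, 15448 and 11500 in control samples. Number 2 was far above the others in each group, so that IFNT 2 exceeded control 4 and the groups overlapped. IFNT differed from control by -0.81 on the log2 scale, with an adjusted p of 0.086 without the block and 1.3e-05 with it.

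COL18A1, the source of endostatin, had 10511, 12966, 14856 and 16289 in IFNT+PGF2A samples 1 to 4 and 11166, 14629, 14360 and 25731 in IFNT samples. It had 7984, 9595, 9988 and 11598 in PGF2A samples and 7903, 10983, 10468 and 14431 in control samples. Each sample with IFNT exceeded the same-number sample without it, and the groups overlapped. The difference of IFNT from control was 0.55 (adjusted p = 0.10, or 0.00056 with the block). That of IFNT+PGF2A from PGF2A was 0.47 (0.17, or 0.0018 with the block).

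Of the beaded filament chains, COL6A1 and COL6A2, neighbouring genes whose products join COL6A3 in type VI collagen, were not called without the block. COL6A1 had 39119, 36485, 50094 and 42116 in IFNT+PGF2A samples 1 to 4, 39481, 40787, 50365 and 58069 in IFNT samples, 42514, 43963, 50740 and 42443 in PGF2A samples, and 43216, 47734, 52774 and 51997 in control samples. IFNT differed from control by -0.07 in COL6A1 (95% interval -0.36 to 0.22) and by -0.07 in COL6A2 (-0.37 to 0.24). IFNT+PGF2A against control gave -0.23 in COL6A1, past the threshold with the block only (adjusted p = 0.0496, or 0.27 without it). COL6A3 had 14115, 18811, 29748 and 21628 in IFNT+PGF2A samples, 13343, 18662, 28355 and 23353 in IFNT samples, 10698, 17179, 26521 and 18726 in PGF2A samples, and 10096, 16888, 23506 and 18919 in control samples. With IFNT against control it was higher in 4 of 4 pairs, by 0.28, with an adjusted p of 0.58 without the block and 0.0030 with it.

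COL6A5 encodes a type VI chain that resembles COL6A3. It had 90.8, 150, 94.5 and 105 normalized counts in IFNT+PGF2A samples 1 to 4 and 65.9, 174, 116 and 69.8 in IFNT samples. It had 35.4, 55.8, 54.6 and 87.5 in PGF2A samples and 54.6, 71.0, 45.7 and 71.2 in control samples. IFNT+PGF2A samples all exceeded PGF2A samples and all exceeded control samples, in each case as the 1 of 30 chains to do so, beside 15.7% and 14.9% of all genes. The log2 difference of IFNT+PGF2A from PGF2A was 0.95 (SE 0.32, adjusted p = 0.045). This call was lost with edgeR (0.0543), with no filter (0.0606) and without any 1 of 11 libraries (0.0512 to 0.138). These were control 1, 2 and 4, IFNT 3, PGF2A 1, 2 and 3 and all 4 of IFNT+PGF2A. The unblocked call was also lost without number 1 (0.146), number 2 (0.158) or number 3 (0.161) in all groups. With the block the adjusted p was 0.0083, and the call was lost without number 1 (0.0691) or number 2 (0.0632). For IFNT against control the log2 difference of COL6A5 was 0.72 (adjusted p = 0.12, or 0.034 with the block), higher in 3 of 4 pairs.

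The remaining classes hold few chains. COL8A1, a short-chain collagen of vessel walls, had 1653, 2255, 3336 and 4268 in IFNT+PGF2A samples 1 to 4 and 1757, 2507, 3481 and 3304 in IFNT samples. It had 897, 1504, 2323 and 2828 in PGF2A samples and 958, 1908, 2268 and 2763 in control samples. Number 1 was the lowest in every group, and each pair with and without IFNT pointed up. The differences were 0.54 for IFNT against control (adjusted p = 0.36, or 0.0013 with the block) and 0.65 for IFNT+PGF2A against PGF2A (0.29, or 0.00035 with the block). COL8A2, with 28.7 to 73.8 normalized counts, was called in no comparison.

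COL7A1, which makes the anchoring fibrils of basement membranes, had 266, 289, 496 and 285 in IFNT+PGF2A samples 1 to 4, 253, 276, 434 and 529 in IFNT samples, 400, 502, 556 and 504 in PGF2A samples, and 312, 551, 681 and 616 in control samples. The groups overlapped, and the difference of IFNT+PGF2A from control was -0.68 (adjusted p = 0.093, or 0.0058 with the block). The membrane-spanning COL13A1, low in reads, had 21.5, 30.4, 59.2 and 36.5 in IFNT+PGF2A samples, 16.7, 15.6, 36.0 and 27.7 in IFNT samples, 18.2, 19.9, 36.8 and 31.5 in PGF2A samples, and 14.4, 15.9, 32.4 and 29.5 in control samples. With both agents against control it was higher in 4 of 4 pairs, by 0.66, with an adjusted p of 0.25 without the block and 0.0044 with it. COL17A1, the hemidesmosome collagen, was called in no comparison.

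No collagen chain was called for PGF2A alone. For PGF2A against control limma called 0 of 30 chains and 0% of all genes, with 0 chains at an unadjusted p under 0.05 (1.1% of all genes), and edgeR and DESeq2 called 0 chains. With the block it also called 0 chains, with 0.163% of all genes. In that fit 6 of 30 chains had an unadjusted p under 0.05, a larger share than the 6.13% of all genes, and the excess was not tested. Those 6 were COL3A1, COL4A5, COL4A6, COL14A1 and COL16A1, lower, and COL27A1, higher. The smallest adjusted p with the block was that of COL4A6, at 0.28. The median difference over the chains was -0.10, and over all genes -0.00. COL4A6 was lower with PGF2A than in control in 4 of 4 pairs, by -0.32. Its unadjusted 95% interval was -0.71 to 0.07 without the block and -0.50 to -0.14 with it.

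No chain was called for PGF2A added to IFNT either. For IFNT+PGF2A against IFNT limma called 0 of 30 chains and 0.00708% of all genes, with COL4A5 the 1 chain at an unadjusted p under 0.05 (2.52% of all genes), and edgeR and DESeq2 called 0. With the block it called 0 chains and 0.701% of all genes. In that fit 10 of 30 chains had an unadjusted p under 0.05, a larger share than the 9.77% of all genes, and the excess was not tested. COL4A6 had the smallest adjusted p with the block, at 0.089: it was lower in 4 of 4 pairs, by -0.37 (unadjusted 95% interval -0.76 to 0.02, or -0.55 to -0.18 with the block). COL4A5 differed by -0.35 (95% interval -0.68 to -0.03) and COL13A1 by 0.60 (-0.22 to 1.42), with adjusted p of 0.16 and 0.15 with the block. COL16A1 was lower in 4 of 4 pairs, by -0.33. The median difference over the chains was -0.13, and over all genes 0.01.

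The interaction asks whether the IFNT difference depended on PGF2A. Limma called 0 of 30 chains and 0% of all genes with and without the block, with 0 chains at an unadjusted p under 0.05 in either fit (0.283% of all genes, or 1.55% with the block), and edgeR and DESeq2 called 0. The interaction terms ran from -0.11 for COL16A1 to 0.45 for COL4A3. Their intervals without the block were wide, at -1.04 to 1.36 for COL11A1 and -0.60 to 0.72 for COL3A1, and the smallest adjusted p of any chain was 1.0.

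In the authors' deposited table of IFNT and control, 3 of the 30 chains had an adjusted p under 0.05, namely COL3A1, COL11A1 and COL12A1, all lower with IFNT. In the authors' deposited table of PGF2A and the combination, 4 did, with COL7A1 and COL11A1 lower and COL6A5 and COL18A1 higher in the combination. In the authors' deposited table of the IFNT main effect, which gives no fold change, 6 did, namely COL3A1, COL6A5, COL11A1, COL12A1, COL15A1 and COL18A1, with adjusted p of 0.000949 (COL11A1) to 0.0286 (COL18A1). In the authors' deposited tables of PGF2A and control, of the combination and IFNT, of the PGF2A main effect and of the interaction, 0 did. The share of all genes under 0.05 in the authors' tables was not counted. These numbers of chains therefore have no background beside them.

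Chains that share a molecule, a place in the genome or, for COL18A1 and COL15A1, only a class were set against each other within samples. These ratios were chosen after the values were seen and carry no test. The log2 ratio of COL1A1 to COL1A2 was higher with IFNT than in control in 4 of 4 pairs, by 0.43 ± 0.13 (SD, n = 4), and higher with IFNT+PGF2A than with PGF2A in 4 of 4, by 0.41 ± 0.06. That of COL3A1 to its genomic neighbour COL5A2 was lower with IFNT than in control in 4 of 4 pairs, by -0.57 ± 0.18. The ratio of COL18A1 to COL15A1 was higher with IFNT than in control in 4 of 4 pairs, by 1.36 ± 0.16, and higher with IFNT+PGF2A than with PGF2A by 1.17 ± 0.26.

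By contrast, the ratio of COL6A1 to COL6A2 differed between IFNT and control by 0.00 ± 0.08. That of COL4A1 to COL4A2 differed by 0.14 ± 0.14, higher in 3 of 4 pairs. These within-sample ratios have no scaling factor in them, so they do not move with the normalization.

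**Figure D4:**
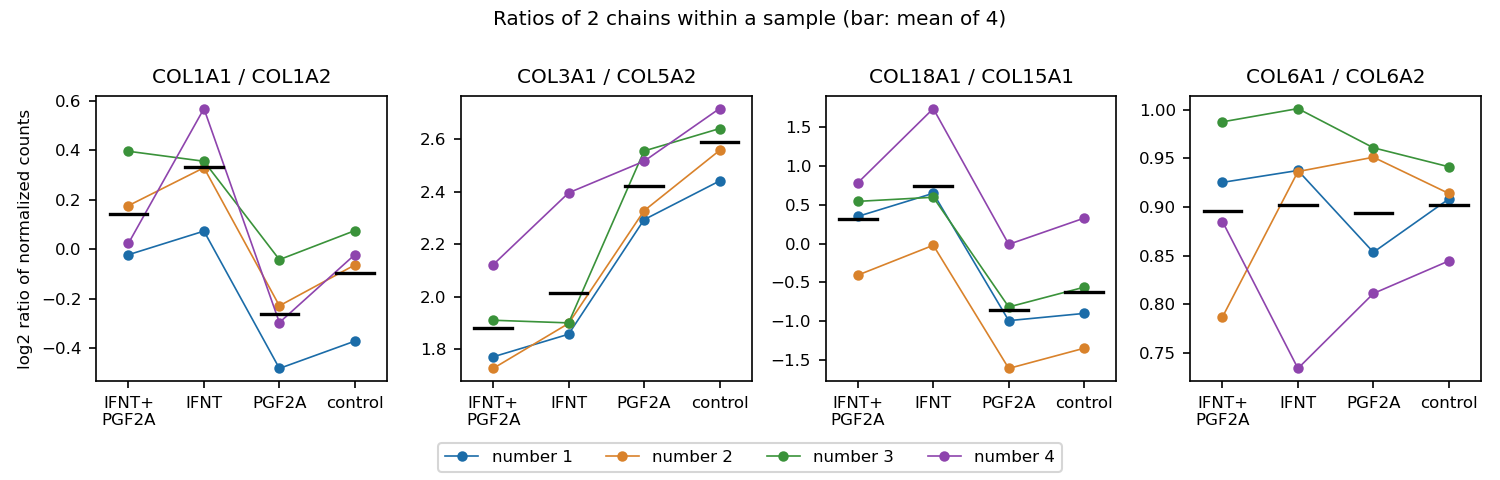
Log2 ratio of the normalized counts of 2 chains within each sample (vertical axes), for 4 pairs of chains, with the groups along the horizontal axis, lines joining samples of the same number and a black bar at the group mean. The COL18A1 to COL15A1 ratio is higher in both groups with IFNT in every number, while the COL6A1 to COL6A2 ratio stays between 0.73 and 1.00 in all samples.

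The sample numbers differed more widely than the groups for most chains. After averaging on the log2 scale, 24 of 30 chains had a wider range over the 4 numbers than over the 4 groups, with median ranges of 0.76 and 0.56. Number 4 was above the mean of the other numbers in all 4 groups for 17 chains and below it in all 4 for COL15A1 alone. Leaving number 4 out of every group changed the unblocked calls to 1, 5 and 2 chains, and the blocked calls to 18, 18 and 17, for IFNT against control, IFNT+PGF2A against control and IFNT+PGF2A against PGF2A. The shares of all genes called in these fits are not given here, so the shift in calls is not read as particular to collagen.

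Genes that make, process or bind collagen were described from lists of 5 roles. Beside every list stand the shares of all genes called. With IFNT against control these were 13.1% higher and 10.9% lower, or 21.3% and 22.1% with the block. With both agents against control they were 12.4% and 9.72%, or 21.1% and 20.3% with the block. For IFNT added to PGF2A they were 12.3% and 8.54%, or 20.9% and 19.5% with the block. Of 18 tested genes for chain modification and folding, 3 rose and 3 fell with IFNT against control, or 4 and 5 with the block. P4HA3, a catalytic subunit of collagen prolyl 4-hydroxylase, had 2219, 1522, 1949 and 1875 normalized counts in IFNT+PGF2A samples 1 to 4, 3335, 2445, 2646 and 2994 in IFNT samples, 681, 356, 430 and 487 in PGF2A samples, and 725, 364, 476 and 678 in control samples. Every sample with IFNT exceeded every sample without it, and the log2 difference of IFNT from control was 2.39 (SE 0.22, limma adjusted p = 9.5e-07). MIA3, a receptor that loads procollagen into transport carriers, rose by 0.55 (adjusted p = 3.2e-05), and PLOD3, a lysyl hydroxylase and glycosyltransferase, by 0.41 (0.024).

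In the same list PLOD2, the lysyl hydroxylase of collagen telopeptides, had 27235, 29886, 22480 and 21792 in IFNT samples and 47184, 60496, 39652 and 44722 in control samples, and fell by 0.92 (adjusted p = 0.0010). P3H2, a prolyl 3-hydroxylase, fell by 0.99 (adjusted p = 0.0026), and P4HA2, another prolyl 4-hydroxylase subunit, by 0.33 (0.024). Paralogous enzymes thus differed in direction, P4HA3 against P4HA2 and PLOD3 against PLOD2. The calls of PLOD3 and P4HA2 were each lost in 7 of the alternatives tried, among them leaving out control 1 or control 3 (adjusted p up to 0.158 over the left-out samples), while those of P4HA3, MIA3, PLOD2 and P3H2 were lost in none. With both agents against control the list gave 2 higher and 4 lower, and with IFNT added to PGF2A 2 higher and 3 lower; P4HA3, MIA3, PLOD2, P3H2 and P4HA2 were called in each. CRTAP, a partner of prolyl 3-hydroxylase, was the further lower call with both agents (-0.57, adjusted p = 0.049) and was lost in 19 of the alternatives. In that comparison PLOD2 was lost without control 2, IFNT+PGF2A 3 or number 1, 2 or 3 (adjusted p up to 0.116) and P3H2 without number 3 (0.0739). P4HA2 was lost there in 4 of the alternatives (up to 0.119). With IFNT added to PGF2A, P4HA2 was lost in 8 (up to 0.183) and P3H2 without number 1 or 3 (up to 0.0891).

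Of 12 tested genes for processing and cross-linking, 0 rose and 1 fell with IFNT by limma (2 fell with the block). It was ADAMTS14, a procollagen N-proteinase, with 35.4, 20.5, 15.4 and 45.1 in IFNT samples and 132, 71.9, 66.6 and 91.5 in control samples, a difference of -1.69 (adjusted p = 0.0031). With both agents against control limma called 0 genes of this list, or 1 higher and 4 lower with the block. With IFNT added to PGF2A, ADAMTS14 differed by -1.07 (limma adjusted p = 0.048). That call was lost in 17 of the alternatives (up to 0.199 over the left-out samples). LOX, which cross-links collagen fibrils, had 2050, 992, 1820 and 1303 in IFNT samples and 3055, 1937, 3091 and 3989 in control samples, and was called with the block only (-0.98, adjusted p = 0.0034). Of 9 tested collagen receptors, ITGA11, the alpha 11 integrin of fibroblasts, fell with IFNT by 0.75 (adjusted p = 0.019), with both agents against control by 0.82 (0.012) and with IFNT added to PGF2A by 0.73 (0.025). The first of these was lost without control 4 or IFNT 2 and when only the groups compared were fitted. The last was lost without PGF2A 1, 3 or 4, IFNT+PGF2A 2 or number 1. All 3 were lost without number 3. Over the left-out samples the adjusted p reached 0.163.

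The fibril-binding proteoglycans FMOD and LUM, related proteins that share a binding region on collagen, changed in opposite directions. FMOD had 36267, 41223, 37366 and 40550 normalized counts in IFNT samples and 16152, 13582, 14145 and 15835 in control samples, and rose by 1.38 (SE 0.09, adjusted p = 2.9e-08). LUM had 67618, 66093, 72897 and 61269 in IFNT samples and 97935, 102837, 101408 and 104788 in control samples, and fell by 0.61 (SE 0.10, adjusted p = 0.00039). They were the 1 higher and 1 lower of 7 genes tested, and in each of the other two comparisons of IFNT they were again the 1 higher and 1 lower. Neither call was lost under any alternative.

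Of 7 tested collagen-degrading genes, limma called 0 with IFNT against control, and the block 2 higher (FAP and CTSK) and 1 lower (MMP16). With both agents against control 2 rose. MMP1, the interstitial collagenase, had 423, 422, 252 and 270 in IFNT+PGF2A samples, 195, 221, 194 and 170 in IFNT samples, 308, 395, 216 and 184 in PGF2A samples, and 211, 206, 164 and 135 in control samples. Its difference of IFNT+PGF2A from control was 0.91 (adjusted p = 0.012, lost without number 1 in all groups). FAP, a gelatin-cleaving membrane protease of stromal cells, rose by 0.92 (adjusted p = 0.025), a call lost without control 1 or 2, IFNT+PGF2A 2, 3 or 4, or number 2 or 4 (up to 0.169).

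**Figure D5:**
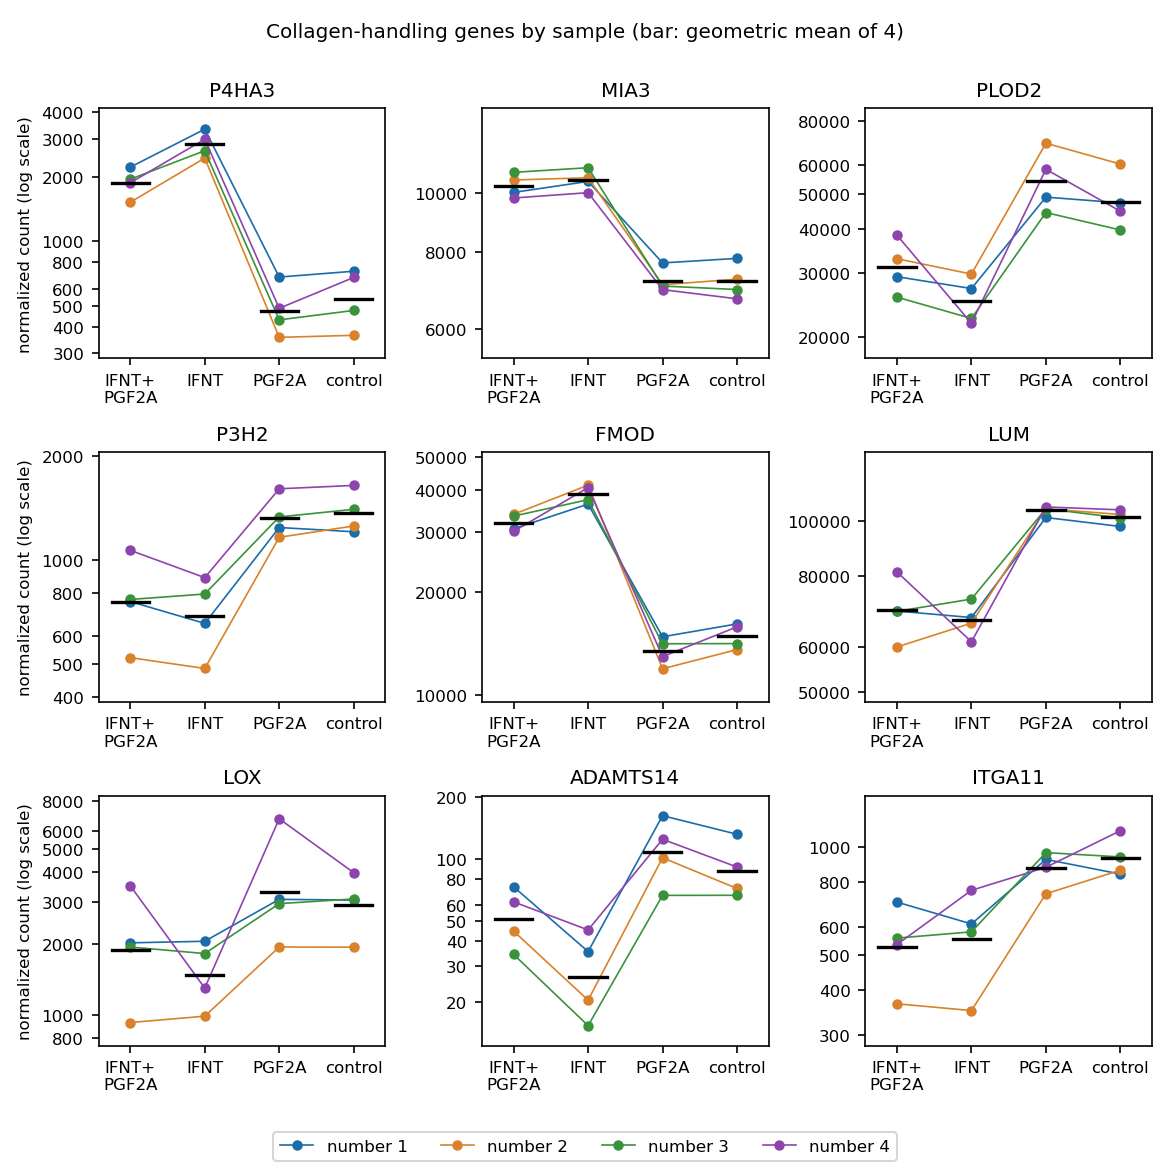
Normalized counts (log scale) of 9 genes that modify, export, bind, cross-link or process collagen or serve as its receptor, in each sample, drawn as in the plot of collagen chains. P4HA3, MIA3 and FMOD are higher, and PLOD2, P3H2 and LUM lower, in every sample with IFNT than in every sample without it.

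PGF2A added to IFNT gave 4 calls on these lists with the block only, where 0.701% of all genes were called. P4HA3 was lower by -0.60 (adjusted p = 0.024), and MMP1 was higher by 0.77 (0.016), ADAMTS14 by 0.93 (0.020) and PCOLCE2, an enhancer of procollagen C-proteinase, by 0.32 (0.046). Without the block all 4 had an adjusted p of 0.997. TLL1, MMP8 and MMP13 were below the level rule.

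Markers of other cell types were set beside these results. For IFNT against control, 13.1% of all genes were called higher and 10.9% lower, or 21.3% and 22.1% with the block. The 10 fibroblast markers summed to 127430 to 181278 in IFNT+PGF2A samples, 139718 to 184691 in IFNT samples, 174554 to 223952 in PGF2A samples and 171178 to 219504 in control samples. LUM and DCN made up 77.6% to 89.9% of the sum. Over the 10 genes the median log2 difference of IFNT from control was 0.14, with 5 above and 5 below 0; 1 rose (THY1) and 1 fell (LUM), or 4 and 4 with the block. LUM, DCN and FAP are on this list and on the lists above. The 10 endothelial markers summed to 12647 to 27838 in IFNT+PGF2A samples, 11690 to 33754 in IFNT samples, 9557 to 22129 in PGF2A samples and 9806 to 24422 in control samples, and 2 rose (TEK and ERG), or 8 with the block. Over these endothelial genes the median log2 difference of IFNT from control was 0.72, with 10 above and 0 below 0.

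Of the 12 pericyte and smooth muscle markers 1 rose with IFNT (PDGFRB), or 5 with 1 lower with the block. Their median log2 difference of IFNT from control was 0.29, with 10 above and 2 below 0. Of 8 steroidogenic markers 2 fell (CYP11A1 and NR5A1), or 5 with 1 higher with the block, and with both agents against control 4 fell. The steroidogenic median for IFNT against control was -0.43, with 2 above and 6 below 0. Leukocyte markers were low, at 423 to 837 summed over 8 macrophage genes and 58.8 to 111 over 6 T and NK cell genes. Of 6 tested macrophage markers 1 rose with IFNT (C1QB), or 4 with 1 lower with the block. C1QB had only 1.87 to 9.52 normalized counts in control samples. The part of cell types in the collagen results was not tested.

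Likeness between genes was measured by Pearson's r of log2 values over the 16 samples, which share sample numbers and treatments, and it is a description. The genes most like COL1A1 were SPARC (0.965), SIPA1L1 (0.960), EWSR1 (0.956), MFAP4 (0.953) and AEBP1 (0.946), and the collagen most like it was COL9A2 (0.884), followed by COL14A1 (0.835) and COL1A2 (0.820). Those most like COL4A1 were ZNF687 (0.945), SLC35C2 (0.940), COPE (0.938), GYPC (0.936) and ZNF408 (0.935), and its closest collagens were its genomic neighbour COL4A2 (0.872) and COL18A1 (0.810).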

How the data were processed

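RNA from 16 cultures was sequenced, and 7 tables were deposited: 4 for pairs of groups, each scaled on 8 samples, and 3 for the interaction analysis of all 16. Alignment and counting tools listed in the submitters' processing notes are RSEM 1.2.8 with Bowtie2 2.2.5, as well as HISAT2 2.0.4 and, for the comparisons, DESeq2. Neither build nor strand use is given in the sources used here. RSEM shares reads between similar genes, which could move reads among collagen paralogs. The authors deposited a signal per gene and sample, the read count divided by a size factor: 100% of the values gave a whole number of reads (tolerance 0.001) when multiplied by the sample's factor. The deposited log2 fold changes and adjusted p-values come from DESeq2 per the submitters' processing notes and were used only where named.

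Values of the 16-sample tables were tested as log2(value + 0.5) with limma 3.58.1 (R 4.3.3, mean-variance trend) over all 16 samples, after keeping genes at 10 or more in at least 4 samples; fold changes are on that scale, which understates changes of low genes. The Benjamini-Hochberg adjustment ran over 14122 genes. Alternatives were the number as a block, edgeR 4.0.16 and DESeq2 1.42.0 on the recovered reads, other scaling, filters and pseudocounts, and leaving out samples. Deviations from group means correlated at 0.352 to 0.719 in 24 same-number pairs and at most 0.0402 in 72 different-number pairs; the pairing is inferred from this and not from the labels. The scripts were tested on simulated data.

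The chains, classes, companion and marker lists were chosen with earlier results of these data known. Values per sample are given for chains called without the block, the 4 smallest adjusted p per comparison and direction among those called with it only, and the highest of each class by mean. From each companion list up to 4 called genes per comparison were to be named; PLOD3, P4HA2, CRTAP, LOX, CTSK, MMP16 and PCOLCE2 were added, and the ratios chosen, after values were seen. Likeness was taken to COL1A1 and COL4A1, the highest chains of their classes by mean. Symbols of 17768 of 18705 gene IDs matched a RefSeq table of assembly ARS-UCD2.0, used for names and neighbours only.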

Additional observations from a re-analysis of the deposited data

Results flagged for a closer look

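In 7 of 120 groups of 4 samples, 1 sample lay farther from the others than Dixon's 95% critical value for 4 samples allows; chance gives about 1 in 20. COL4A3 had 141.8 in IFNT sample 3, with the other IFNT samples at 30.3 to 42.3, and 157.0 in control sample 3, with the other control samples at 56.5 to 68.1. IFNT sample 4 was the highest of its group in COL4A1 (133987.3, others 96390.6 to 98409.8), in COL4A2 (78900.8, others 42920.9 to 44201.7) and in COL17A1 (32.8, others 6.9 to 9.8). COL11A1 had 283.3 in IFNT sample 2, with the other IFNT samples at 606.3 to 655.4. COL7A1 had 496.5 in IFNT+PGF2A sample 3, with the other IFNT+PGF2A samples at 265.7 to 289.4.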

How the results depend on the processing

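Adding the number as a replicate block, which pairs the samples, raised the calls to 16 chains (IFNT against control), 16 (IFNT+PGF2A against control) and 15 (IFNT+PGF2A against PGF2A), in place of 2, 3 and 1. The block with edgeR, chosen after seeing the data, gave 16, 15 and 15. Of 47 chain and comparison pairs called in either fit, 6 were called without the block and 47 with it. With no filter IFNT against control gave 1 call and IFNT+PGF2A against PGF2A 0; IFNT+PGF2A against PGF2A also gave 0 with edgeR, 2 with DESeq2 and 2 when only the groups compared were fitted. Leaving out 1 library or 1 number gave 0 to 3, 0 to 5 and 0 to 2 calls without the block. With the block they were 11, 13 and 11 without number 1, 9, 11 and 9 without number 2 and also without number 3, and 18, 18 and 17 without number 4; PGF2A against control then had 0 to 1 and IFNT+PGF2A against IFNT 0 to 2, the highest without number 4. TMM scaling, a pseudocount of 1 and a filter of 50 kept every count. Except for the block with all samples, the shares of all genes called under these alternatives are not given here. Those counts of chains therefore have no background beside them. COL1A2 turned sign for IFNT against control without IFNT 2 (-0.4079 to 0.0053 over the left-out samples) and for IFNT+PGF2A against control without IFNT+PGF2A 2 (-0.4627 to 0.0203). COL6A3 did so for IFNT+PGF2A against PGF2A without PGF2A 1 (-0.0073 to 0.4293); none of these was called without the block. The cause of these shifts was not tested. With 4 samples a group and wide spread between numbers, the unblocked and unadjusted 95% intervals of most chains reach from a fall to a rise. For IFNT against control, those of COL3A1, COL11A1, COL12A1 and COL15A1 lay wholly below no difference. Those of COL6A5 and COL18A1 lay wholly above it.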
